A study of Mus musculus with 11 samples.

Results

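The inner hair cells (IHCs) and outer hair cells (OHCs) of the mouse cochlea were described here by 6 genes of transcription factors: Tbx2, Insm1, Ikzf2, Neurod6, Six2 and Zfp503. They were chosen by symbol, as factors tied to the inner or the outer fate, and make up 6 of 24898 genes listed in the series. The tables of E14, E16, P1 and P7 held rows for 4, 6, 6 and 5 of them. Insm1 and Neurod6 were not analysed at E14, nor was Neurod6 at P7. Single cells came from the floor of the cochlear duct of wildtype CD1 mice of either sex, collected on embryonic days 14 and 16 and postnatal days 1 and 7, and no genotype or treatment was compared. Cochleae of several animals were pooled before each droplet library was made, so the replicate is a pool, and differences between animals cannot be seen. The numbers of libraries were 2, 3, 4 and 2 in order of age, with between 1247 and 5598 cells each and a median of 2478 to 5647.5 unique molecular identifiers (UMIs) per cell. Within an age, 11, 29, 84 and 9 cell barcodes at E14, E16, P1 and P7 occurred in more than 1 library.

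Hair cells (HCs) of the cochlea differentiate in a wave that starts near the base, and from 1 library a range of stages is therefore recovered. IHCs lie on the medial side of the sensory epithelium and pass the signal to the auditory nerve, whereas the OHCs on the lateral side amplify it by changing their length. Tbx2 is a T-box factor that acts in the inner fate. Insm1 is a zinc-finger repressor of young OHCs that keeps IHC genes off, and Ikzf2 (Helios) is a zinc-finger factor of maturing OHCs. Neurod6 is a basic helix-loop-helix factor, Six2 a homeodomain factor and Zfp503 (Nolz1) a zinc-finger repressor.

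On the mouse assembly GRCm38, in the GENCODE annotation, the protein-coding gene Tbx2 lay on the plus strand at chr11:85832551-85841948 and Insm1 on the plus strand at chr2:146221921-146225020. The other genes lay on the minus strand, Ikzf2 at chr1:69531214-69687245, Neurod6 at chr6:55677822-55681263, Six2 at chr17:85684277-85688274 and Zfp503 at chr14:21983959-21989601. Ikzf2 overlapped an antisense gene, Gm29114, and 2 sense-intronic genes, Gm29112 and Gm28112, whose reads could have been counted apart from it. No other member overlapped an annotated gene. RefSeq promoter windows (GRCm38.p6) were matched for 3 of 6 members, Neurod6, Six2 and Zfp503. The windows of Neurod6 and Zfp503 are shown because the levels of these genes were the most alike among the 10 pairs compared over the cell classes at P1, Insm1 left out (below). Each holds the 250 bases before the gene's start, 5′ to 3′ on the minus strand, and capitals mark CAGNTG, an E-box of the form that basic helix-loop-helix factors bind, searched on both strands.
Neurod6, chr6:55681264-55681513: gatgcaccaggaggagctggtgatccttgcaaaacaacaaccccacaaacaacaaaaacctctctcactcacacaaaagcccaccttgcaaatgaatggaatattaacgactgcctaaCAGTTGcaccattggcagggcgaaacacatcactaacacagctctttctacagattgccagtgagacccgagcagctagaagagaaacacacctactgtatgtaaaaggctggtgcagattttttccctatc
Zfp503, chr14:21989602-21989851: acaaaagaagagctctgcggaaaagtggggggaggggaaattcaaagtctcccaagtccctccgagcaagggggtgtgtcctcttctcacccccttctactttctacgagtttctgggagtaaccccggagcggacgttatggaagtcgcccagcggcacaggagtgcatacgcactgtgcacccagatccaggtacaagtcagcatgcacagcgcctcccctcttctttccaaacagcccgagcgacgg
The Neurod6 window held 1 match, at -132 from the start, and the Zfp503 window held none. CAGNTG occurred in 44.8% of 32851 promoter windows of this length, so the match is a description and not a site.

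No cell annotation was used, and classes were rebuilt by clustering with the 6 genes left out of the clustering genes and of every marker list. Clusters were named, with "-like", from marker genes. HCs were named by 12 markers such as Myo6, Pou4f3 and Pvalb, IHC-like cells by genes such as Fgf8, Cabp2 and Slc17a8, and OHC-like cells by genes such as Strip2, Bcl11b and Ocm. There were 117, 178 and 67 IHC-like cells and 402, 777 and 140 OHC-like cells at E16, P1 and P7. At E14 only 11 IHC-like and 29 OHC-like cells were found, too few for a test. The IHC marker sum was 3230, 5163 and 5795 UMIs per 1000000 in IHC-like cells against 896, 1680 and 1009 in OHC-like cells at E16, P1 and P7. The OHC marker sum ran the other way, at 2279, 682 and 779 against 4443, 2569 and 15400. At E16 the IHC-like cells thus still carried a good part of the OHC marker sum, with Cacng2, Ocm and Bcl11b at 0. The OHC markers Slc26a5 and Bcl11b were at 0 in IHC-like cells at P1 and P7. Clusters of HCs with raised markers of Kölliker's organ or Deiters' cells and with many UMIs were set apart as mixed and left out (80, 96 and 37 cells at E16, P1 and P7).

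Levels are given as the mean, over the cells of a class in 1 library, of a gene's UMIs per 1000000 UMIs of the cell (CPM), and errors are SDs over libraries. Differences were tested with limma on log2(CPM + 10) over those genes whose mean reached 10 CPM, with the library as a block where both classes came from the same libraries, and are given as log2 differences ± SE. A gene counts as called when its Benjamini-Hochberg adjusted p over all genes tested is under 0.05. The added 10 CPM makes these differences smaller than the ratios of the means for low genes. With few libraries per class at every age, the limma p-values rest mostly on the spread pooled over all genes. For IHC-like against OHC-like cells a gene's own spread weighed 2 degrees of freedom and the pooled spread 37.5 at E16, and 3 and 53.2 at P1. Within P7, and for medial against lateral cells at E14, the pooled weight had no limit, and a gene's own spread did not enter.

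The comparison of IHC-like with OHC-like cells asked which of the 6 genes lay on which side at each age. Tbx2 was higher in IHC-like cells at E16, P1 and P7. Insm1, Neurod6 and Zfp503 were lower in IHC-like cells at every age at which they were listed and tested, and among these ages Six2 was first called lower in IHC-like cells at P1 and Ikzf2 at P7. At E16 4 of 5 members tested were called, beside 2.49% of 8688 genes. At P1 5 of 5 were called, beside 13.2% of 8819 genes, and at P7 5 of 5, beside 13.4% of 8632 genes. Ikzf2 did not reach the 10 CPM filter at E16 and P1, and Neurod6 had no row at P7. The members were chosen as fate factors with earlier results of these data known, so these counts are a description. Zfp503 at P1, and Insm1, Ikzf2 and Six2 at P7, had 0 in IHC-like cells and passed the filter through OHC-like cells alone. So did Zfp503 at E16 and P7 (means of 3.03 and 1.92 CPM in IHC-like cells) and Insm1, Neurod6 and Six2 at P1 (6.02, 1.69 and 8.86). Tbx2 passed through IHC-like cells alone at E16, P1 and P7, with means of 7.85, 1.89 and 7.47 CPM in OHC-like cells. For all of these the filter favoured the direction found.

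**Figure D1:**
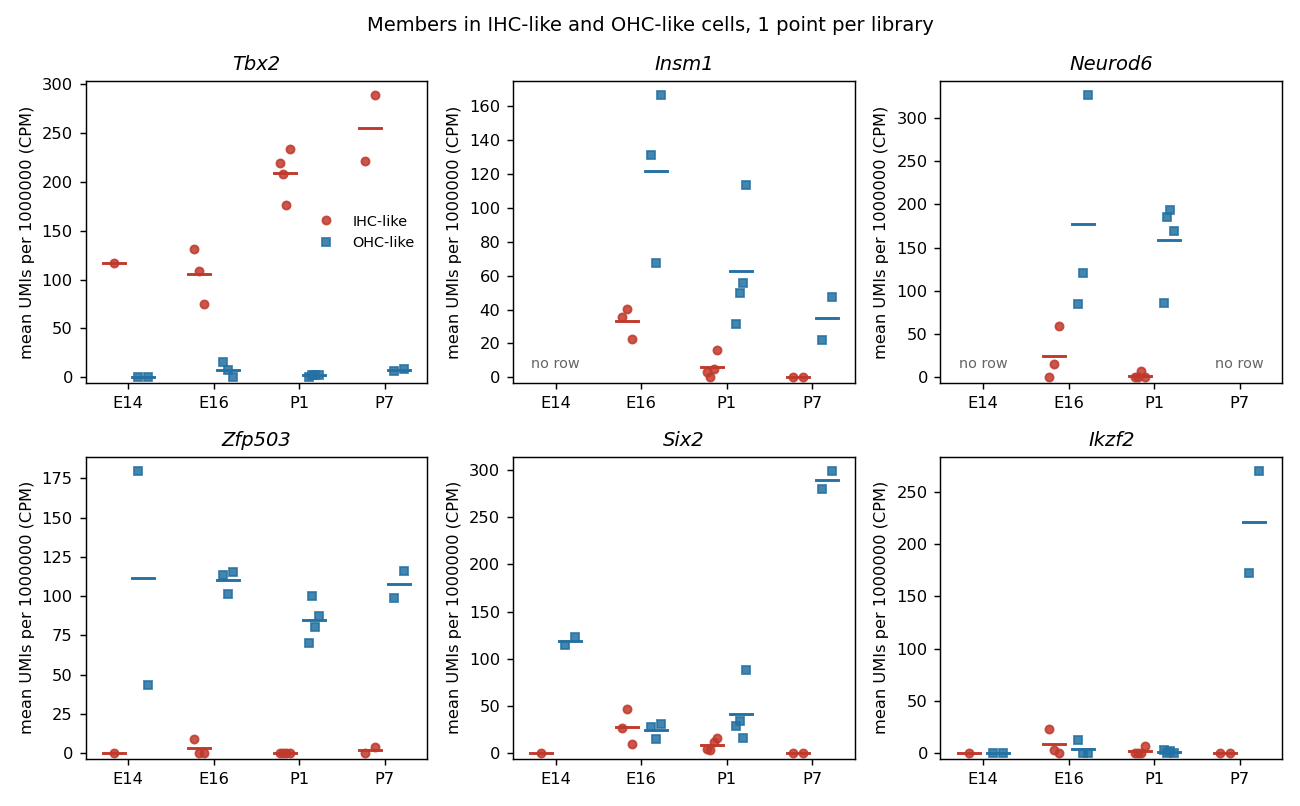
Mean level (UMIs per 1000000, linear axis from 0) of each gene in IHC-like (red circles) and OHC-like (blue squares) cells at E14, E16, P1 and P7, with 1 point per library and at least 5 cells, and a bar at the mean. Tbx2 lay between 75.5 and 289 in IHC-like cells of every library and at or under 15.8 in OHC-like cells, and Six2 and Ikzf2 in OHC-like cells lay apart from the earlier ages at P7.

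Tbx2, the member of the inner side, was measured in IHC-like cells at 131, 109 and 75.5 CPM in E16 replicates 1 to 3. At P1 it stood at 219, 208, 176 and 233 CPM in replicates 1 to 4, and at P7 at 221 and 289 CPM in replicates 4 and 5. In OHC-like cells it reached 15.8, 7.80 and 0 CPM at E16, between 0.650 and 2.54 CPM at P1, and 6.42 and 8.52 CPM at P7. The classes did not overlap at any of these ages. Over all genes tested, 1242 of 8688 did not overlap at E16, 666 of 8819 at P1 and 3971 of 8632 at P7. The ratio of the means was 13.4 at E16, 110 at P1 and 34.1 at P7, and the log2 differences were 2.76 ± 0.44, 4.20 ± 0.22 and 3.91 ± 0.37 (n = 3, 4 and 2 libraries; adjusted p = 3.74e-05, 2.51e-23 and 2.44e-23). At E14 the 1 library with at least 5 IHC-like cells had 116 CPM, and the 29 OHC-like cells of both libraries had no Tbx2 UMI, which allows up to 10.3% of cells with a UMI. Such limits hold for cells in which a UMI was detected, and not for cells that express the gene.

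Tbx2 rested on many cells. At P1 126 of 178 IHC-like cells had a Tbx2 UMI (70.8%, 95% exact binomial interval 63.5 to 77.4, for counting error only), against 9 of 777 OHC-like cells (1.16%, 0.531 to 2.19) at median depths of 7344 and 6338 UMIs. In Deiters' and pillar-like cells, whose median depth was 5679 UMIs, the share was 1.56%, so that the few OHC-like cells with a Tbx2 UMI were no more frequent than in a neighbouring lateral class. With every cell thinned to 1500 UMIs, the shares were 27.5% and 0.515%. At E16, 34 of 117 IHC-like cells had a Tbx2 UMI (29.1%, 21.04 to 38.2) at a lower median depth of 3754 UMIs, and 11.1% did after thinning. At P7 it was 49 of 67 (73.1%, 60.9 to 83.2), and 26.9% after thinning.

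Between ages, Tbx2 in IHC-like cells had a mean of 105 ± 28.1 CPM at E16 and 209 ± 24.4 at P1, and the libraries of the 2 ages did not overlap, yet the difference did not pass the threshold (log2 0.95 ± 0.32, adjusted p = 0.0660). How many of all genes lacked overlap between these ages was not counted. In IHC-like cells 0 of 4 members tested were called by limma between these ages, beside 7.88% of 8904 genes, and 3 had an unadjusted p under 0.05, Tbx2, Insm1 and Neurod6. From P1 to P7 the log2 difference was 0.27 ± 0.32 (adjusted p = 0.702; 95% interval -0.39 to 0.92), beside 6.82% of 8827 genes called. At P1 the IHC-like cells fell into 2 clusters. The one with Atoh1 and Nefm among its leading genes, 28 cells, had a mean of 141 CPM, and the other, 150 cells with Otof and Calb2, had 224 CPM, given as a description since both were pooled over libraries.

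Insm1 was highest in OHC-like cells at E16, with 131, 67.5 and 167 CPM in replicates 1 to 3. It stood at 31.2, 50.0, 55.8 and 114 CPM at P1, and at 21.9 and 47.6 CPM at P7. In IHC-like cells it was 35.7, 40.6 and 22.8 CPM at E16, between 0 and 16.1 CPM at P1, and 0 in both libraries at P7. The E16 level of IHC-like cells came from 18 UMIs in 7 of 117 cells. The classes did not overlap at any age, beside 1242 of 8688, 666 of 8819 and 3971 of 8632 genes tested at E16, P1 and P7. The log2 difference, IHC-like minus OHC-like, was -1.56 ± 0.38 at E16 (adjusted p = 0.0118), -2.16 ± 0.26 at P1 (adjusted p = 1.41e-09) and -2.10 ± 0.50 at P7 (adjusted p = 4.46e-04). The E16 call was lost without replicate 3 (log2 -1.12, adjusted p = 0.317), with an added 1 CPM (adjusted p = 0.0543) and without the library block (adjusted p = 0.0835). At P7, 0 of 67 IHC-like cells had a UMI, which allows up to 4.48% of cells with a UMI, and OHC-like cells were at least 5.75-fold higher than the 6.05 CPM that 3 UMIs in the class would give. That call was also lost with an added 1 CPM (adjusted p = 0.0619).

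Insm1 was nearly confined to HCs. Outside them, 9 of 7362 cells at E16, 5 of 12992 at P1 and 8 of 3113 at P7 had an Insm1 UMI (0.122%, 0.0385% and 0.257%), against 101 of 402, 241 of 777 and 15 of 140 OHC-like cells (25.1%, 31.0% and 10.7%). After thinning to 1500 UMIs the OHC-like shares were 13.2%, 9.78% and 2.86%. The mean in OHC-like cells was 122 ± 50.2 CPM at E16 and 62.7 ± 35.6 at P1, with overlapping libraries, and the difference was not called (log2 -0.90 ± 0.35, adjusted p = 0.0914). It was called, at -1.19 (adjusted p = 0.0177), without P1 replicate 4, whose 114 CPM was the highest at that age, and at -1.24 (adjusted p = 0.0486) without E16 replicate 2. In the younger P1 cluster of IHC-like cells Insm1 had a mean of 18.0 CPM and in the other 4.97 CPM.

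Neurod6 was measured in OHC-like cells at 85.01, 121 and 326 CPM in E16 replicates 1 to 3 and at 86.2, 185, 193 and 169 CPM in P1 replicates 1 to 4. In IHC-like cells it was 0, 15.8 and 59.5 CPM at E16, and at P1 it was 0 in 3 libraries and 6.75 CPM in replicate 3. The classes did not overlap, beside 1242 of 8688 genes tested at E16 and 666 of 8819 at P1. The log2 differences were -2.62 ± 0.38 at E16 (adjusted p = 6.71e-06) and -3.83 ± 0.24 at P1 (adjusted p = 6.17e-20). E16 replicate 3, which was highest in both classes for Neurod6, also had the highest sum of the genes that mark young OHCs (7943 CPM in OHC-like cells, against 5342 and 5508), and P1 replicate 1, lowest in OHC-like cells, had the lowest sum at P1 (1817, against 2569 to 3877). The part of this sum in the Neurod6 level was not tested across libraries. Outside HCs 10 of 7362 cells at E16 and 10 of 12992 at P1 had a Neurod6 UMI (0.136% and 0.0770%), against 132 of 402 and 327 of 777 OHC-like cells (32.8% and 42.1%).

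Zfp503, on the outer side at each age, stood at 113, 101 and 115 CPM in OHC-like cells of E16 replicates 1 to 3, at 70.2, 99.9, 80.3 and 87.4 CPM at P1 and at 98.7 and 116 CPM at P7. In IHC-like cells it was 9.09 CPM in E16 replicate 1 and 0 in the other two libraries, 0 in all 4 libraries at P1, and 0 and 3.84 CPM at P7. No library of one class reached the other, beside 1242 of 8688, 666 of 8819 and 3971 of 8632 genes tested at E16, P1 and P7. The log2 difference was -3.27 ± 0.46 at E16, -3.23 ± 0.26 at P1 and -3.32 ± 0.47 at P7 (adjusted p = 3.90e-06, 1.19e-15 and 8.19e-11). At P1, 0 of 178 IHC-like cells with a median of 7344 UMIs had a Zfp503 UMI, which allows up to 1.69% of cells with a UMI, against 273 of 777 OHC-like cells (35.1%, 31.8 to 38.6). OHC-like cells were at least 36.5-fold higher than the 2.32 CPM of 3 UMIs in the class. At E14 the OHC-like cells of replicates 1 and 2 had 180 and 43.0 CPM, and the 7 IHC-like cells of replicate 2 had none, which is too few cells to set apart from 97.9 CPM.

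Six2 lay in both types of HCs at E16 and in OHC-like cells at P7. At E14 it was 115 and 123 CPM in the OHC-like cells of replicates 1 and 2, above each OHC-like library of E16 and P1, and 0 in the 7 IHC-like cells of replicate 2, which are too few for a test. At E16 it was 27.4, 15.03 and 30.5 CPM in OHC-like and 26.9, 46.4 and 9.55 CPM in IHC-like cells, overlapping, with a log2 difference of 0.03 ± 0.50 (adjusted p = 0.992; 95% interval -0.97 to 1.04). At P1 it was 28.4, 33.6, 15.7 and 88.1 CPM in OHC-like cells and 4.30, 3.64, 11.4 and 16.1 CPM in IHC-like cells. IHC-like cells were lower within each of the 4 libraries, although replicate 4 of the IHC-like cells lay above replicate 3 of the OHC-like cells (log2 -1.32 ± 0.27, adjusted p = 2.27e-04; adjusted p = 0.114 without the library block). Replicate 4 was the highest for Six2 in both classes and also in all other cells, at 65.6 CPM against 40.4 to 43.2 in the other libraries. At P7 OHC-like cells had 280 and 299 CPM and IHC-like cells none in 67 cells, at least 47.9-fold lower than in OHC-like cells at the floor of 6.05 CPM (fitted log2 -4.90 ± 0.41, adjusted p = 1.03e-30).

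Ikzf2 was low in both types of HCs at E16 and P1 and high in OHC-like cells at P7. In OHC-like cells it was 12.7, 0 and 0 CPM at E16, between 0 and 3.15 CPM at P1, and 173 and 270 CPM at P7. IHC-like cells held 23.3, 3.20 and 0 CPM at E16, 0 to 6.40 CPM at P1, and 0 in both P7 libraries. Before P7 the levels of both classes were near those of a few UMIs and were not tested. At P7 the OHC-like mean of 222 CPM was at least 36.6-fold higher than the floor of IHC-like cells (fitted log2 -4.50 ± 0.43, adjusted p = 3.48e-23). By cells, 6 of 777 OHC-like cells had an Ikzf2 UMI at P1 (0.772%, 0.284 to 1.67) and 92 of 140 at P7 (65.7%, 57.2 to 73.5), at nearly equal median depths of 6338 and 6648 UMIs.

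The comparison of ages in OHC-like cells asked which members changed as these cells matured. The age and the collection cannot be told apart, since each library holds 1 age. From E16 to P1, 0 of 4 members tested were called by limma (beside 16.9% of 8747 genes), and 1, Insm1, had an unadjusted p under 0.05. Zfp503 and Neurod6 differed by log2 -0.35 ± 0.25 and 0.00 ± 0.37 (95% intervals -0.87 to 0.17 and -0.76 to 0.77; adjusted p = 0.358 and 0.994), and Six2 by 0.43 ± 0.38 (adjusted p = 0.483). From P1 to P7, 2 of 4 members tested were called, beside 25.9% of 8837 genes, and both rose. Ikzf2 rose from 1.22 ± 1.52 to 222 ± 69.0 CPM (log2 4.34 ± 0.32, adjusted p = 8.47e-08) and Six2 from 41.5 ± 32.0 to 290 ± 13.3 CPM (log2 2.72 ± 0.41, adjusted p = 1.22e-04). Ikzf2 passed the filter through the P7 libraries alone, which favoured a rise. Insm1 and Zfp503 had log2 differences of -0.64 ± 0.40 and 0.32 ± 0.28 (adjusted p = 0.264 and 0.440).

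Whether the inner to outer difference itself changed with age was tested as an interaction. From P1 to P7 it moved toward OHCs by log2 -4.52 ± 0.47 for Ikzf2 (adjusted p = 3.36e-08) and -3.59 ± 0.48 for Six2 (adjusted p = 3.96e-06), 2 of 5 members tested beside 10.3% of 8940 genes. The same test gave 0.06 ± 0.47 for Insm1, -0.09 ± 0.45 for Zfp503 and -0.29 ± 0.38 for Tbx2, none of them called. From E16 to P1, 0 of 5 were called by limma (beside 0.989% of 8898 genes), although 3 had an unadjusted p under 0.05: Tbx2 (1.43 ± 0.40, adjusted p = 0.0978), Neurod6 (-1.21 ± 0.42, adjusted p = 0.218) and Six2 (-1.35 ± 0.55, adjusted p = 0.298). Neurod6 was called without E16 replicate 1 (-1.52, adjusted p = 0.0479).

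Since 1 library holds OHCs of many stages, the OHC-like cells of each library were ordered by 2 marker lists, and their outer terciles compared. The early list of 6 genes, such as Atoh1 and Sox2, marks young HCs, and the late list of 11 genes, such as Tmc1, Otof and Slc26a5, later ones. At P1 4 of 4 members tested were called between the terciles, beside 23.6% of 8723 genes. Neurod6, Zfp503 and Insm1 were lower in the older tercile and Six2 was higher. Neurod6 fell from 213, 315, 279 and 340 CPM in the younger tercile of replicates 1 to 4 to 9.75, 33.7, 62.3 and 23.4 CPM in the older tercile, without overlap (log2 -2.95 ± 0.21, adjusted p = 1.02e-14). Zfp503 fell from 96.3, 178, 130 and 117 CPM to 72.6, 52.8, 36.2 and 62.03 CPM, also without overlap (log2 -1.09 ± 0.21, adjusted p = 1.08e-04). Over all genes tested, 1062 of 8723 did not overlap between these terciles.

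Insm1 was 40.1, 57.4, 72.0 and 115 CPM in the younger and 24.0, 23.1, 50.8 and 66.6 CPM in the older tercile, lower in 4 of 4 libraries with overlapping ranges (log2 -0.68 ± 0.23, adjusted p = 0.0270). Its call was lost without replicate 2 (adjusted p = 0.109), without replicate 4 (adjusted p = 0.113), without the filter on low values (adjusted p = 0.0674), without cells above the study's size limits (adjusted p = 0.0992) and without the library block (adjusted p = 0.326). Six2 rose from 13.5, 25.8, 5.73 and 32.1 CPM to 54.6, 63.3, 23.1 and 143 CPM, higher in the older tercile of 4 of 4 libraries (log2 1.36 ± 0.26, adjusted p = 1.08e-04), and its ranges overlapped through the low replicate 3. Its call was lost without the library block (adjusted p = 0.0761). Tbx2 was not tested along this order. It was found in 2, 3 and 4 cells of the younger, middle and older terciles, of 258, 261 and 258 cells.

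**Figure D2:**
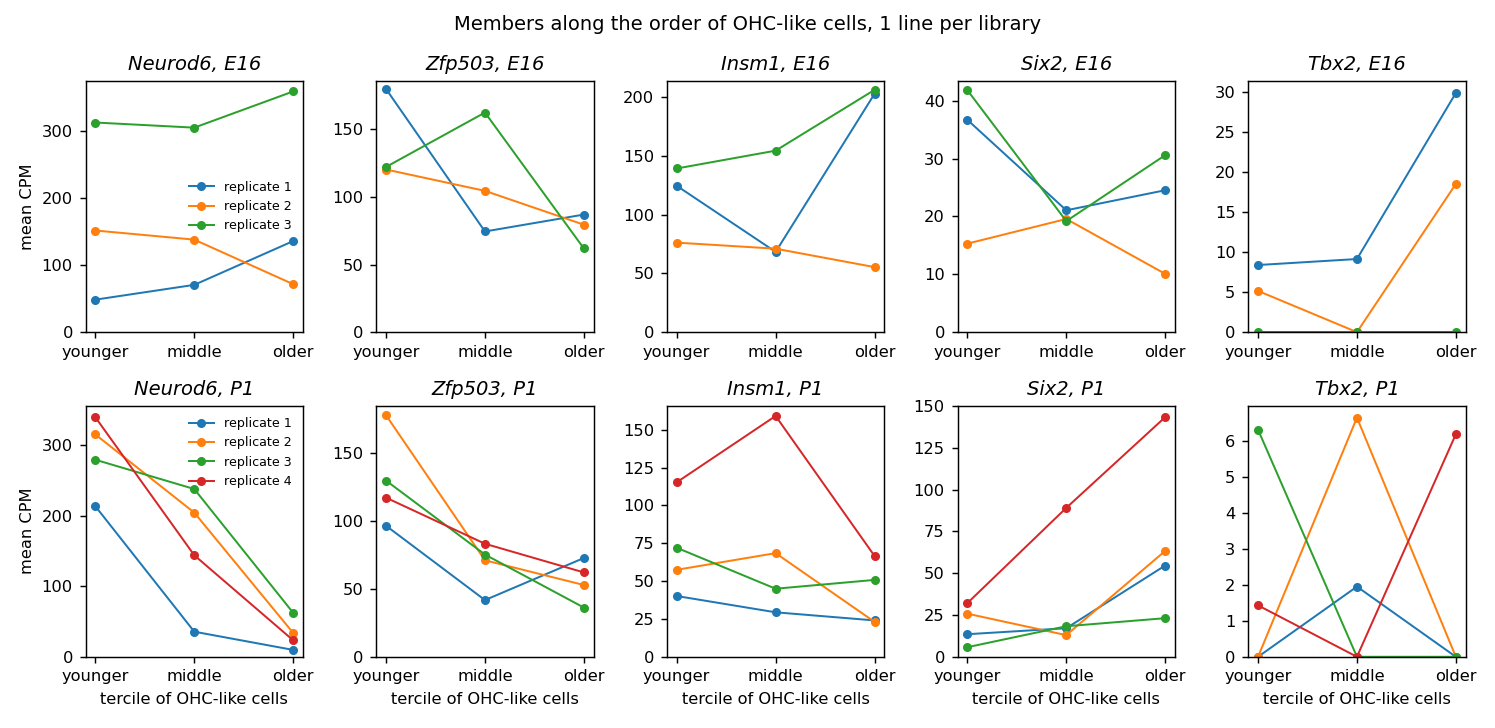
Mean level (UMIs per 1000000, linear axis) in the younger, middle and older tercile of the OHC-like cells, with 1 line per library, at E16 (top) and P1 (bottom). At P1 the Neurod6 line of each of the 4 libraries drops from at least 213 to at most 62.3, the Six2 lines end higher than they start, and at E16 the Zfp503 and Six2 lines end lower in each library without a call.

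At E16 the same order separated no member, 0 of 5, and only 0.0595% of 8398 genes were called by limma. Zfp503 was the 1 member with an unadjusted p under 0.05. It was 180, 120 and 122 CPM in the younger and 86.9, 79.4 and 61.9 CPM in the older tercile (log2 -0.80 ± 0.39, adjusted p = 0.824). The marker lists did differ between the E16 terciles, as they were used to make them, with a late-list sum of 74.7 CPM in the younger and 452 CPM in the older tercile. At P1 it was 709 and 3380 CPM. The E16 order thus covered a lower range of the late list, and by the late list alone Neurod6 was called higher in the older tercile (log2 1.96 ± 0.42, adjusted p = 0.00834), opposite to its direction at P1. At P7, where the terciles were not tested, Ikzf2 was 108 and 234 CPM in the younger and 218 and 340 CPM in the older tercile of replicates 4 and 5, and Six2 285 and 320 against 302 and 292 CPM. Both genes were thus high in both ends of the P7 order, against means of 1.22 and 41.5 CPM in OHC-like cells at P1.

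Single cells were then examined for 2 members at once. The number of cells with a UMI of both genes was set beside the product of the shares of cells with each, over the IHC-like, OHC-like and untyped HCs of an age (519, 955 and 227 cells at E16, P1 and P7). Cells of 1 library are not replicates and no test was run. Over these HCs, with the mixed clusters left out, Tbx2 was rarely found with an outer member. Of 955 HCs at P1, 3 held both Tbx2 and Zfp503 (product 38.6), 5 held Tbx2 and Insm1 (35.1), 4 held Tbx2 and Neurod6 (46.5) and 12 held Tbx2 and Six2 (27.1), and each count was below the product in 4 of 4 libraries. At E16, 1 of 519 cells held Tbx2 and Zfp503 (7.43), 1 held Tbx2 and Insm1 (8.53) and 0 held Tbx2 and Neurod6 (11.2), below the product in 3 of 3 libraries. Six2 was the exception at that age, with 5 cells beside a product of 2.92.

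At P7, 1 of 227 HCs held Tbx2 and Ikzf2 (24.0), 4 held Tbx2 and Six2 (31.4), 2 held Tbx2 and Zfp503 (17.9) and 0 held Tbx2 and Insm1 (3.83), below the product in both libraries. Several pairs of outer members were found together more often than the product. At P1 the count lay above it in 4 of 4 libraries for Neurod6 with Zfp503 (145 cells, product 94.1), Insm1 with Neurod6 (126, 85.4), Insm1 with Zfp503 (96, 70.9) and Six2 with Zfp503 (71, 54.9). It lay below in 3 of 4 libraries for Insm1 with Six2 (49, 49.9) and Neurod6 with Six2 (56, 66.1). At P7 the pairs above it in both libraries included Ikzf2 with Six2 (80, 50.9) and Six2 with Zfp503 (58, 37.9). At E16 Six2 with Zfp503 went the other way, below the product in 3 of 3 libraries. Insm1 with Neurod6, Insm1 with Zfp503 and Neurod6 with Zfp503 lay above it in 3 of 3 at that age. These counts, and those with Tbx2, pool IHC-like and OHC-like cells and so carry the difference between the classes. Within the 178 IHC-like cells at P1, Tbx2 with Six2 was found in 10 cells (product 7.79), above the product in 3 of 4 libraries, Tbx2 with Insm1 in 5 (4.96), above in 2 and below in 1, and Tbx2 with Neurod6 in 1 (1.42). Within the 117 IHC-like cells at E16 the counts were 5 for Six2 (3.78), 1 for Insm1 (2.03) and 0 for Neurod6 (2.91). Within the 777 OHC-like cells at P1 the counts stayed above the product for Neurod6 with Zfp503 (145, 115), Insm1 with Neurod6 (126, 101) and Insm1 with Zfp503 (96, 84.7) in 4 of 4 libraries, whereas Neurod6 with Six2 lay below it in 4 of 4 (55, 76.2). Six2 with Zfp503 lay above the product in 3 of 4 libraries of these cells, and below it in 3 of 3 within the OHC-like cells at E16. Within the 140 OHC-like cells at P7 Ikzf2 with Six2 lay close to it (79, 74.9). In the 80 mixed HCs at E16, 3 cells held Tbx2 and Zfp503 (3.03), 2 held Tbx2 and Insm1 (1.79), both above the product in 2 of 3 libraries, and 0 held Tbx2 and Neurod6 (1.93). The UMIs per cell differ within a class, and their part in these counts was not tested.

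**Figure D3:**
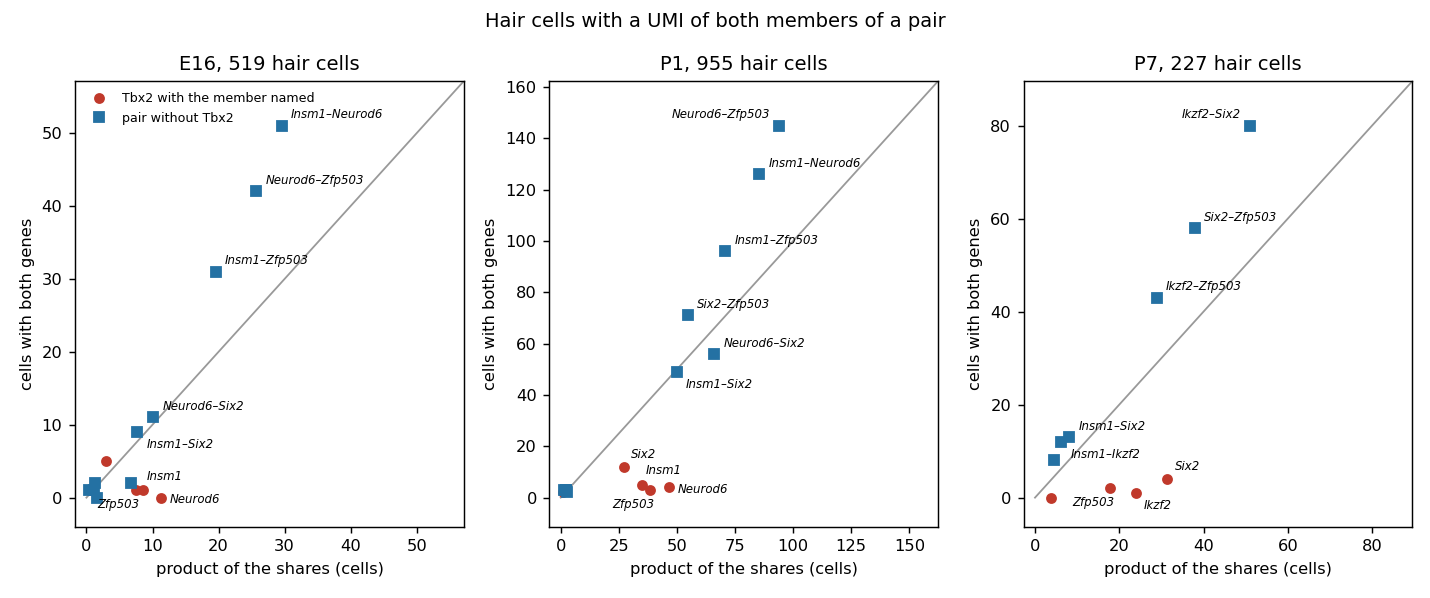
Number of HCs with a UMI of both genes of a pair (vertical axis, cells) against the product of the 2 genes' shares times the number of cells (horizontal axis, cells) at E16, P1 and P7, with a grey line where both are equal. Red circles, pairs of Tbx2 with the gene named, lie under the line except for Six2 at E16 and pairs with under 3 expected cells, and the blue squares of the most frequent outer pairs lie above it.

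HCs whose cluster could not be typed were few. At P7 a cluster of 20 untyped cells had means of 89.6 CPM for Tbx2, 28.8 for Ikzf2, 86.2 for Six2 and 31.3 for Zfp503, between the IHC-like and OHC-like levels, with a median of 8864 UMIs. At E14 the 22 untyped HCs had 93.7 CPM of Tbx2, 99.5 of Six2 and no Zfp503. Their sum of Kölliker's organ markers was 1961 CPM, against 863 in the OHC-like and 1343 in the IHC-like cluster at E14. Their median was 8591 UMIs, against 4463 and 4862. Mixed clusters were not set apart at E14, and these cells held 22 of the 27 Tbx2 UMIs of the E14 HCs tested. The mixed cluster at E16, with raised markers of Kölliker's organ, had 59.5 CPM of Tbx2 and 109 of Zfp503.

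Outside the HCs the 6 genes fell into 2 kinds. Insm1 and Neurod6 were low over the other cells, and Zfp503 in most classes of them, whereas Tbx2, Ikzf2 and Six2 were also found in other cells of the duct. Zfp503 did reach 72.3 CPM in cycling-like cells at P7 (128 and 16.8 CPM in replicates 4 and 5, from 8 of 80 cells with a UMI), near the 69.7 CPM of all P7 HCs. The next list of that cluster by marker score was glia (1.55, against 3.06 for cycling), and Ednrb and Postn were among its leading genes. It also reached 29.2 CPM in Oc90 roof-like cells at E14, 29.2 CPM in Claudius, outer sulcus and lesser ridge-like cells at P1 and 28.8 CPM in glia-like cells at P7. Comparing HCs with all other cells gave 1 of 3 members tested at E14 (beside 12.2% of 8849 genes), 5 of 6 at E16 (40.2% of 9052), 6 of 6 at P1 (69% of 9127) and 5 of 5 at P7 (65.1% of 9082). With such backgrounds the counts say little, and the directions are given instead. The median of all genes stood at 0.13 at P1 and 0.10 at P7 on the log2 scale in this comparison, and at 0.12 and 0.11 in OHC-like and IHC-like cells from E16 to P1.

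Insm1 and Neurod6 were higher in HCs at E16 and P1 by log2 3.38 ± 0.24 and 2.49 ± 0.23 (Insm1) and 3.67 ± 0.27 and 3.69 ± 0.18 (Neurod6), with adjusted p of at most 3.88e-06. Zfp503 was higher by 2.85 ± 0.21, 2.80 ± 0.13 and 2.71 ± 0.24 at E16, P1 and P7, and by 1.997 ± 0.44 at E14 (adjusted p = 5.26e-04), where it was 96.8 and 17.9 CPM in HCs and 4.95 and 2.52 CPM in other cells. That E14 call was lost without the filter on low values (adjusted p = 0.0529), without the library block (adjusted p = 0.178) and without cells above the study's size limits (adjusted p = 0.101). Ikzf2 and Six2 reversed between P1 and P7. Ikzf2 was lower in HCs at E16 (log2 -1.21 ± 0.25, 5.20 against 22.3 CPM) and P1 (-1.37 ± 0.15, 1.16 against 19.0 CPM), with adjusted p of 4.50e-04 and 1.74e-05, and higher at P7 (2.75 ± 0.21, 140 against 11.8 CPM). Six2 was lower in HCs at E16 (-1.18 ± 0.20, 25.1 against 70.6 CPM, adjusted p = 5.65e-05) and higher at P7 (3.52 ± 0.21, 186 against 7.18 CPM). At P1 its difference of -0.51 ± 0.19 (adjusted p = 0.0325) was lower in 3 of 4 libraries and lost its call without replicate 1, 2 or 3 (adjusted p = 0.0898, 0.0907 and 0.183), without the filter on low values (0.105), with the mean of the ln values (0.215), without cells above the study's size limits (0.0769) and without the library block (0.243). Tbx2 did not pass at E14 (0.10 ± 0.36) or E16 (-0.32 ± 0.20, adjusted p = 0.218), and was higher in HCs at P1 (0.85 ± 0.16, adjusted p = 9.30e-04) and P7 (2.41 ± 0.22).

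**Figure D4:**
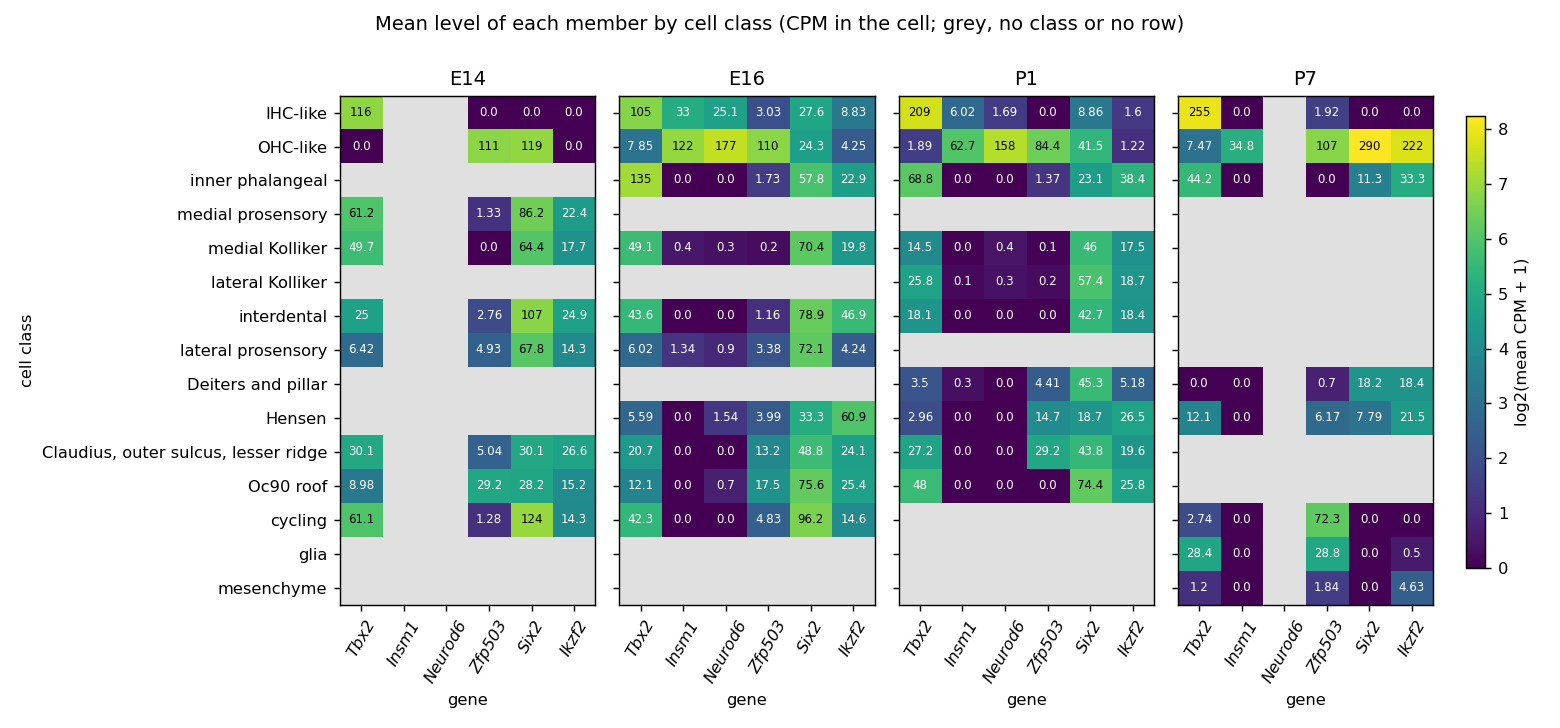
Mean level (printed in each field, UMIs per 1000000; colour, log2 of the level plus 1) of the 6 genes by cell class at E14, E16, P1 and P7. Tbx2 was found in IHC-like, inner phalangeal-like and Kölliker-like classes and also in others such as Oc90 roof-like (48.0 at P1), Claudius, outer sulcus and lesser ridge-like (30.1, 20.7 and 27.2 at E14, E16 and P1) and interdental-like cells (43.6 at E16). It did not exceed 6.42 in the fields for lateral prosensory-like cells, which at E16 include 106 Deiters' and pillar-like cells, and for Deiters' and pillar-like cells, and Insm1 and Neurod6 did not exceed 1.54 in the classes shown outside HCs.

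The side of the duct on which Tbx2, Ikzf2 and Six2 lay outside HCs was examined in supporting cells. Medial cells were medial prosensory-like at E14 and inner phalangeal-like later. They were compared with lateral prosensory-like cells at E14 and E16 and Deiters' and pillar-like cells from E16 on. Inner phalangeal cells surround the IHCs and Deiters' cells the OHCs. The pillar-like cells include clusters led by Npy (106 cells at E16 and 192 at P1), a gene that the paper localizes to pillar cells lying between IHCs and OHCs. At E14 the medial class joined cluster 10 (232 cells, led by Fgf20 and Tectb) and cluster 19 (113 cells). Cluster 19 had no medial prosensory marker among its 10 leading genes and had the inner phalangeal markers Matn4 and Fgf3 there, so the E14 values are given by cluster, a choice made after seeing the data. At E16 the lateral cells joined a cluster of 438 lateral prosensory-like with one of 106 Deiters' and pillar-like cells. At P7 the inner phalangeal-like class joined cluster 9 (168 cells, marker score 0.858) and cluster 17 (51 cells, score 1.52, led by Fabp7). Cluster 9 was led by Krtdap, the interdental marker Foxq1 and Otol1. Whether both clusters lie around the IHCs was not tested, and P7 values are not given by cluster. Of the classes compared here, the medial ones had more Tbx2 at all 4 ages. At E14 it was 35.4 and 64.4 CPM in cluster 10 and 101 and 69.6 CPM in cluster 19 of replicates 1 and 2. In medial cells it was 207, 159 and 39.3 CPM at E16, 86.9, 55.02, 54.7 and 78.6 CPM at P1, and 44.2 and 44.3 CPM at P7, and in lateral cells it did not exceed 6.77, 11.4 and 5.62 CPM at E14, E16 and P1. At P7 none of 154 Deiters' and pillar-like cells had a Tbx2 UMI, which allows up to 1.95% of cells with a UMI, beside 18.7% in inner phalangeal-like cells. At E14 the log2 difference from lateral cells was 1.82 ± 0.37 for cluster 10 and 2.52 ± 0.37 for cluster 19 (adjusted p = 8.52e-05 and 1.03e-09, beside 3.09% and 8.35% of genes called). With both clusters as 1 class it was 2.11 ± 0.30 (adjusted p = 5.13e-10, beside 5.15% of genes called). From E16 to P7 it was 2.97 ± 0.55, 2.54 ± 0.27 and 2.44 ± 0.40 (adjusted p = 3.77e-04, 4.21e-09 and 3.22e-08), beside 3.68%, 20.1% and 27.9% of genes called. Tbx2 was called at each age and in both E14 clusters. Its lateral means were under 10 CPM at each age, so it passed the filter through medial cells alone. With the E14 clusters joined, medial and lateral libraries did not overlap in Tbx2 at any age. Over all genes tested the same held for 3487 of 8701, 1446 of 8576, 1093 of 8428 and 5051 of 8398 from E14 to P7.

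The medial cells of E16 were few, 20, 39 and 62 in replicates 1 to 3, and Tbx2 ranged widely among them. In inner phalangeal-like cells the mean was 135 ± 86.5 CPM at E16, 68.8 ± 16.5 at P1 and 44.2 ± 0.0442 at P7, while in IHC-like cells it was 105, 209 and 255 CPM. These courses were not tested against each other.

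**Figure D5:**
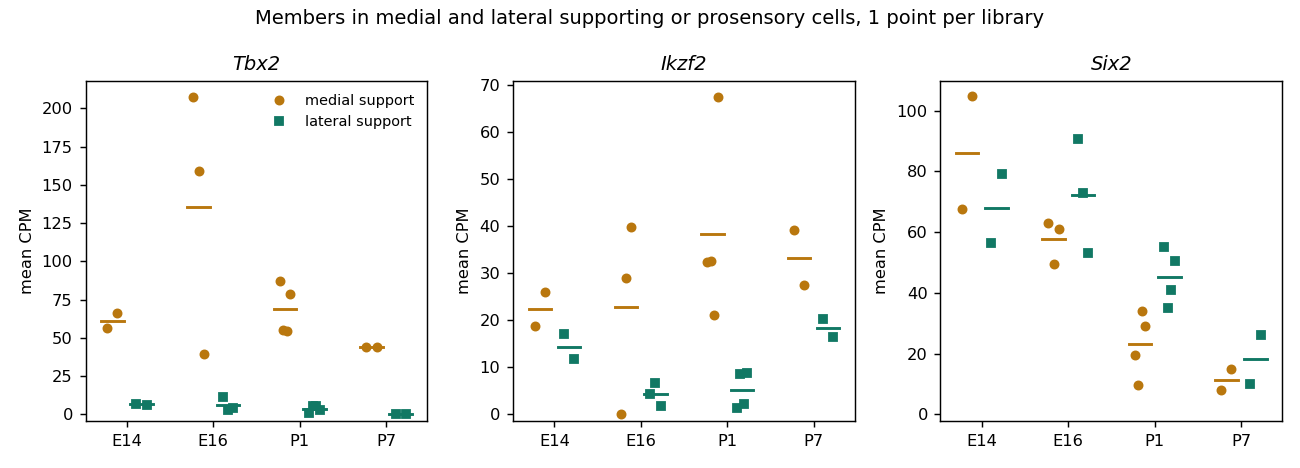
Mean level (UMIs per 1000000, linear axis) of Tbx2, Ikzf2 and Six2 in medial (brown circles) and lateral (green squares) prosensory-like or supporting cells, with 1 point per library and a bar at the mean, and with both medial clusters joined at E14. Every medial Tbx2 point, from 39.3 up, lies above every lateral one, from 11.4 down.

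Ikzf2 at P1 was 32.4, 32.6, 21.1 and 67.5 CPM in inner phalangeal-like and 1.24, 8.53, 2.16 and 8.77 CPM in Deiters' and pillar-like cells (log2 1.63 ± 0.27, adjusted p = 1.77e-05). Ikzf2 passed the filter here through inner phalangeal-like cells alone. Between these supporting classes it was thus higher on the inner side at P1, and between HCs on the outer side at P7. Ikzf2 was not low in every lateral class at P1, with 26.5 CPM in Hensen-like and 19.6 CPM in Claudius, outer sulcus and lesser ridge-like cells. It had 17.5 CPM in medial Kölliker-like, 18.7 CPM in lateral Kölliker-like and 18.4 CPM in interdental-like cells. Its medial to lateral difference was 0.93 ± 0.70 and 0.60 ± 0.38 at E16 and P7 (adjusted p = 0.637 and 0.242) and 0.32 ± 0.38 and 0.58 ± 0.41 for clusters 10 and 19 at E14 (adjusted p = 0.830 and 0.455), and was not called there. Six2 was lower in medial cells at P1, at 19.6, 9.66, 33.95 and 29.2 CPM against 55.05, 34.9, 40.8 and 50.5 CPM (log2 -0.79 ± 0.25, adjusted p = 0.0207), and that call was lost without replicate 1, 2 or 4 (adjusted p = 0.136, 0.110 and 0.0519), without the filter on low values (0.0928) and without the library block (0.157). At E14 Six2 was 36.1 and 79.4 CPM in cluster 10, not called against lateral cells (log2 -0.26 ± 0.27, adjusted p = 0.793), and 136 and 155 CPM in cluster 19, higher than in lateral cells (1.01 ± 0.25, adjusted p = 0.00168). In other cells than HCs, the means from E14 to P7 were 70.7, 70.6, 48.1 and 7.18 CPM for Six2 and 38.7, 39.7, 19.7 and 8.17 CPM for Tbx2. The makeup of these cells differed between ages, as mesenchyme-like and glia-like cells were named at P7 alone, and its part in these levels was not tested.

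The genes whose levels were most like each member's over the 40 class means at P1 (10 named classes in 4 libraries, log2(CPM + 10), Pearson's r as a description) were found by rank. The class means share libraries and depth, and genes below a mean of 10 CPM were left out. For Neurod6 they were Sstr2 (0.93), Coro2a (0.92), Pkn3 (0.91), Mslnl (0.90) and 5730508B09Rik (0.89), and for Zfp503 the nearest gene was Neurod6 itself (0.77), before Pkn3 (0.75), 5730508B09Rik (0.71), Calca (0.71) and Mpc1 (0.69). Tbx2 was nearest to Smad3 (0.75), Shtn1 (0.71), Brip1 (0.70), Fam149a (0.70) and Atp2a3 (0.68), of which Shtn1 and Atp2a3 were among the IHC markers. Six2 was nearest to Tmem127 (0.76), Pdgfa (0.71), Lurap1 (0.69), Wdr53 (0.69) and Vasn (0.68). Ikzf2, which at P1 lay outside HCs, was nearest to Fuca1 (0.91), Wls (0.89), Ctsd (0.84), Tmed10 (0.83) and Cst3 (0.83). Among the members, Tbx2 and Zfp503 had r = -0.47, Tbx2 and Neurod6 -0.34, and Ikzf2 and Neurod6 -0.52. Insm1 did not reach 10 CPM over the 40 means and was left out.

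Other factors of HCs were counted from lists. Of 20 hair cell transcription factors listed, 18 were tested at P1, and 4 were higher and 5 lower in IHC-like cells, beside 13.2% of 8819 genes called in either direction, with a median log2 difference of 0.06 beside -0.03 over all genes tested. Bcl11b, a zinc-finger repressor that was also an OHC marker here, was 0 CPM in IHC-like and 67.6 CPM in OHC-like cells. Hes6 stood at 577 and 1215 CPM (log2 -1.01 ± 0.08), Gfi1 at 328 and 214 (0.67 ± 0.13) and Gata3 at 372 and 248 (0.57 ± 0.11), with adjusted p of at most 9.20e-05. At E16, 0 were higher and 4 lower of 19 tested, beside 2.49% of 8688 genes called, and at P7 0 were higher and 1 lower of 17, beside 13.4% of 8632 genes. Among family relatives of the members, Ikzf5 and Six4 were tested at E16, P1 and P7 and Six5 at E16 and P1 alone, and of these 0 were called between IHC-like and OHC-like cells by limma, with 0 at an unadjusted p under 0.05. Of 12 genes of repressor complexes, such as Hdac1, Kdm1a and Chd4, 0 were called by limma at E16, P1 and P7, and 1 value, that of Hdac2 at P1, had an unadjusted p under 0.05. In the older tercile of OHC-like cells at P1, 5 of these 12 were lower and 0 higher (median -0.14 beside -0.01 over all genes), where 1089 of 8723 genes were lower and 966 higher. Of the lists of IHC and OHC function genes, most were markers that named the classes, and their counts (11 higher and 1 lower of 12, and 2 higher and 4 lower of 9 at P1) are a description of the classes. Large differences were found for Fgf8 (log2 5.62), a secreted growth factor of IHCs, Cabp2 (5.13), a calcium-binding protein, Fam19a3 (4.34) and Shtn1 (4.21) among the former, and for Lbh (-2.03), Strip2 (-1.47) and Lmod3 (1.19) among the latter.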

How the data were processed

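Single-cell libraries of the cochlear duct floor (2, 3, 4 and 2 at E14, E16, P1 and P7) were aligned and counted by the authors with Cell Ranger 2.1.1 on mm10 and filtered in Seurat 2.0, per the study's methods and processing notes. The deposited values are the natural log (ln) of 1 plus a UMI's share of its cell scaled to a fixed total, and whole UMIs were recovered for 100% of values within a tolerance of 0.02. No column of another sample was present. Cells above the study's limits on genes or UMIs were present (for example 1134 cells over 3000 genes at P1) and were kept in the reported values. The members and gene lists were chosen with earlier results of these data known.

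Cells were clustered (scanpy 1.11.5, leidenalg 0.10.2) on 2000 genes without the members. The marker lists were set first, and the thresholds for naming clusters (a mean z of 0.6, a lead of 0.2, at least 3 markers) were set after the clusters were seen. Unnamed clusters held 900, 2017, 4188 and 2271 cells. Doublets were handled by setting mixed clusters apart. Scrublet, as an alternative, called 0.0355% to 2.59% of a library. It called under 0.5% at E14, at E16 and in P1 replicate 4 (0.143%), where it cannot be said to have worked. Class means of at least 5 cells per library were compared on the log2(CPM + 10) scale by limma (version 3.58.1, R 4.3.3). The tests other than the interactions were also run on simulated data, in which the classes of a library shared its effect. The outcome of these runs is not reported here. Replicates are separate collections, per the study's methods. UMI shares carry exact binomial intervals, and a count of 0 is given with the limit of 3 UMIs. Members are named in every comparison. Of each list up to 4 genes are named, those with the largest called IHC to OHC difference at P1, and for each member the 5 genes of highest correlation at P1. Some genes of the lists are not reported here. Means were compared between the separately normalized tables of 2 ages, because each cell is scaled to its own total. Alternatives were the pseudocount, the filter, the averaging, doublets, the typing of HCs, the order of OHCs, the block and each library left out, and after seeing the data each E14 medial cluster alone.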

Additional observations from a re-analysis of the deposited data

Results flagged for a closer look

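In 59 groups of 4 libraries at P1 tested with Dixon's criterion, 3 had a library far from the others, and chance alone sets apart about 1 group in 20. Neurod6 in HCs of replicate 1 was 66 CPM, against 141 to 155 in the other libraries. Six2 in cells other than HCs was 65.6 CPM in replicate 4, against 40.4 to 43.2. Tbx2 in the older tercile of OHC-like cells was 6.18 CPM in replicate 4, from few cells, and 0 in the others.

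The inner to outer difference changed between P1 and P7 by an interaction test for 2 members, by log2 -4.52 for Ikzf2 (SE 0.466, adjusted p = 3.36e-08) and -3.59 for Six2 (SE 0.479, adjusted p = 3.96e-06). Ikzf2 passed the filter of that test through OHC-like cells at P7 alone.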

How the results depend on the processing

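Of 900 log2 differences of members under the alternatives, 828 kept their direction and their side of the threshold, 26 were no longer called, 11 became called and 35 turned their sign, the last only where the reported value was not called. Of 208 counts of members called, 192 stayed within 1.5 times. Some alternatives changed nothing in a comparison, and their agreement there carries no information. Leaving out doublet calls did not change the fits of IHC-like against OHC-like cells, of the OHC terciles or of either class between ages. The coarser resolution did not change IHC-like against OHC-like cells at P1. At E16 the size limits changed neither IHC-like against OHC-like cells nor the terciles. At P1 they lowered the genes called between IHC-like and OHC-like cells from 1160 to 505. Tbx2, Neurod6 and Zfp503 between IHC-like and OHC-like cells, and Ikzf2 and Six2 at P7, kept their calls under each alternative with a test. The cause was not tested where a value moved, except that fewer libraries were used. Counts of all genes called depended more on the settings, from 80 to 357 at E16, 238 to 1257 at P1 and 463 to 1215 at P7 for IHC-like against OHC-like cells, 322 to 2383 for HCs at E14 and 0 to 26 for OHC terciles at E16. Leaving out 1 library at E14 or P7 leaves 1 library and a value with no test. Depth limits the zeros to 3 UMIs per class.

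For HCs at E14 the 1 member called became 0 without the filter, 0 without the library block, 2 with summed UMIs and 0 without cells above the size limits (chosen after seeing the data, as was placing mixed and untyped HCs by their lead). For medial against lateral cells at E14 the count was 2 in place of 1 with cluster 19 alone, which added Six2, and Six2 turned to -0.26 with cluster 10 alone (both chosen after seeing the data). For the OHC terciles the count was 1 in place of 0 at E16 by the late list alone (Neurod6, log2 1.96, adjusted p = 0.00834) and 2 in place of 4 at P1 without the library block (Insm1 and Six2 no longer called). Between E16 and P1 it was 0 to 1, in place of 0, for OHC-like cells, for IHC-like cells and for their gap when 1 library was left out, and 1 for IHC-like cells and for the gap with the mean of the ln values (Tbx2, adjusted p = 0.0125 and 5.99e-05). The replicate numbers shared by E16 and P1 gave correlations of deviations of -0.125 to 0.0594 in OHC-like and -0.0344 to 0.0390 in IHC-like cells, so they did not pair the samples. With the replicate block 1 member was called in place of 0 in each class, Insm1 (log2 -1.19, adjusted p = 0.0108, and -1.76, adjusted p = 0.0432), and Neurod6 in OHC-like cells had -0.044. P1 and P7 share 1 number, and no block was possible there.

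Signs turned for Six2 between IHC-like and OHC-like cells at E16, with -0.014 at an added 1 CPM, -0.26 for HCs split by marker lead, -0.19 at the coarser resolution, -0.073 with the members among the clustering genes, -0.20 with mixed cells placed by lead and -0.54 to 0.58 with 1 library left out. In HCs at E14 without cells above the size limits Tbx2 had -0.44 and Six2 -0.36, and Tbx2 ran from -0.44 to 0.64 with 1 library left out. Neurod6 in the E16 terciles ran from -0.40 to 0.76 with 1 library left out. From E16 to P1 in OHC-like cells, Neurod6 had -0.031 with summed UMIs, -0.0066 with mixed cells placed by lead, -0.22 without cells above the size limits and -0.38 to 0.54 with 1 library left out, and Zfp503 had 0.043 with ln means. Tbx2 in IHC-like cells from P1 to P7 had -0.064 without cells above the size limits. For the gap between E16 and P1, Zfp503 had -0.72 at an added 1 CPM, -0.064 with ln means and -0.15 to 0.33 with 1 library left out, and Insm1 0.075 with ln means. For the gap between P1 and P7, Insm1 had -1.40 and Zfp503 0.79 at an added 1 CPM, and -0.37 to 0.48 and -0.21 to 0.041 with 1 library left out, and Tbx2 0.18 with ln means and 0.12 with summed UMIs.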
